A study of Homo sapiens with 34 samples.

Results

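*ARNTL*, *CLOCK* and *NPAS2* encode the transcriptional activators of the mammalian circadian clock. They were followed here as 3 loci of the 28690 in the gene tables of a time course, each found by its symbol among the names of a locus, and each present as a single row. The cells were *Bmal1:luc* U2OS, an osteosarcoma line of human origin with a stable luciferase gene under the *Bmal1* promoter. They received a dexamethasone shock to align their clocks and were kept in DMSO (the control) or in 5 mM 6-aminonicotinamide (6AN), an inhibitor of the pentose phosphate pathway. Total RNA was depleted of ribosomal RNA and sequenced at 12 time points labelled from 0 to 44 hr, 4 hr apart, with 1 library for each time point and condition, 24 libraries in all. Chromatin taken after 24 hr of treatment was precipitated for BMAL1, CLOCK and 2 histone marks, again with 1 library for each condition. All samples come from the same reporter line. The time points form 1 series for each condition and are not replicates of it, and the spread given with each mean includes the rhythm itself.

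BMAL1, the protein made from *ARNTL*, pairs with either CLOCK or NPAS2, and the pair binds E-boxes to switch on the genes of the negative limb, among them the *PER* and *CRY* genes. PER and CRY proteins then block the pair. A second loop acts on *ARNTL* itself: ROR proteins activate it and the REV-ERB proteins, made from *NR1D1* and *NR1D2*, repress it through the same promoter elements, so that *ARNTL* messenger RNA is the member of the trio known for a strong rhythm, while *CLOCK* is known for a flat one in many tissues. NPAS2 is the relative of CLOCK that can take its place.

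Levels are given in FPKM, in which fragments are scaled by transcript length and by library size, so that genes can be set side by side. In control cells *NPAS2* was the most abundant of the trio, at 29.3 ± 6.18 FPKM (mean and SD over 12 time points), above *CLOCK* at 7.995 ± 0.579 and *ARNTL* at 7.52 ± 1.96. The means of *CLOCK* and *ARNTL* differed by less than either SD. Among expressed loci, the 51.2% of all loci with the highest mean FPKM, *NPAS2* stood above 76.9%, *CLOCK* above 42.9% and *ARNTL* above 41.2%. In 6AN the order of the means was *NPAS2* at 16.7 ± 1.63, *ARNTL* at 7.35 ± 3.19 and *CLOCK* at 6.01 ± 0.678 FPKM, and again the last pair could not be told apart within the spread of *ARNTL*. Depth was known only within each table: relative to the median library of its table, it spanned 0.581 to 1.31 (control) and 0.696 to 1.55 (6AN). Of 7 genes of the osteoblast lineage, *RUNX2* stood at 14 FPKM and *SPARC* at 323 FPKM in control, although the late osteoblast factor *SP7* was near 0 at 0.0146 FPKM. Of 4 genes of other cell types, *PTPRC*, *ALB* and *PECAM1* stood at 0.0289, 0.0111 and 0.365 FPKM in control, and the epithelial gene *EPCAM* at 1.02 FPKM.

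*ARNTL*, the partner that both other activators need, varied over time in both conditions with nearly opposite timing. In control its lowest, median and highest values were 5.52, 6.68 and 11.2 FPKM, with the top at 12 hr and the bottom at 20 hr. In 6AN they were 3.29, 7.07 and 12.6 FPKM, with the bottom at 8 hr and the top at 20 hr. At 12 hr, where control cells had their highest value, 6AN cells had 0.319 times as much, whereas at 20 hr they had 2.28 times as much. The conditions crossed 4 times over the series and their values overlapped throughout: *ARNTL* was lower in 6AN at 6 time points and higher at 6, and the means over time differed by -0.03 on the log2(FPKM + 1) scale, with a jackknife SE of 0.239.

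**Figure D1:**
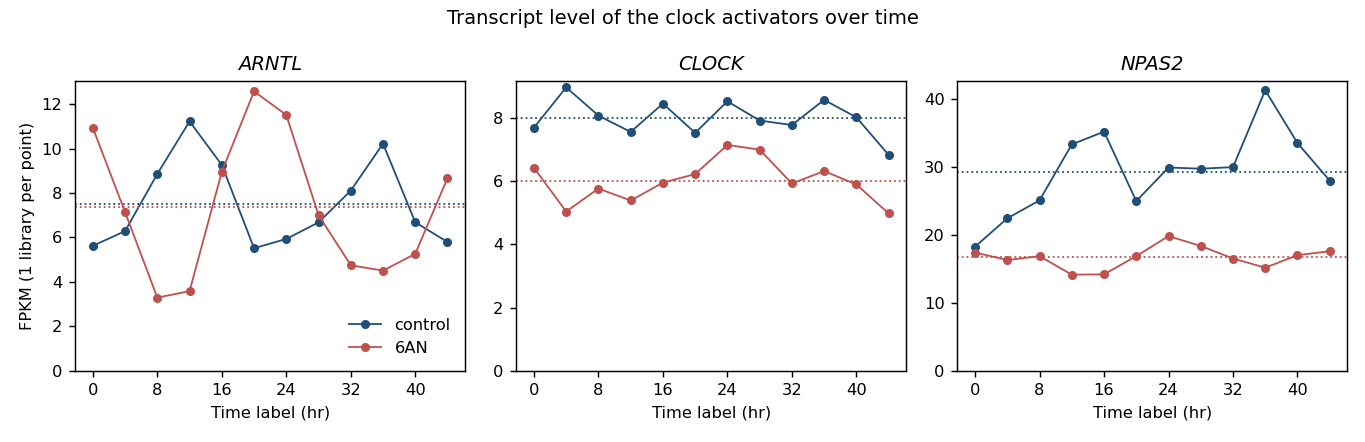
FPKM of *ARNTL*, *CLOCK* and *NPAS2* against the time label in hours, with 1 point for each library, in control (blue) and 6AN (red). Dotted lines mark the mean over 12 time points. *ARNTL* peaks at 12 hr in control and at 20 hr in 6AN, while every red point of *CLOCK* and *NPAS2* lies below the blue point of the same time.

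The series held 2 spans of 24 hr. In control *ARNTL* varied 2.03-fold from lowest to highest in the first, from 0 to 20 hr, and 1.76-fold in the second, and its tops lay at 12 and 36 hr. Values 24 hr apart differed by -0.08 ± 0.191 (log2, mean and SD over 6 pairs). In 6AN the ranges were 3.82-fold and 2.56-fold, with the tops at 20 and 24 hr, neighbouring time points that form a single crest, and the bottoms at 8 and 36 hr, 28 hr apart. Values 24 hr apart differed there by -0.07 ± 0.426, from -0.67 to 0.42, so a repeat after 24 hr was less close than in control, where they differed by -0.42 to 0.08.

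Whether a member was rhythmic was asked with an umbrella test, a rank test for a rise followed by a fall over 24 hr. The 12 values were folded on 24 hr into 6 phases of 2. The null was counted over all 7484400 distinct ways to assign the 12 ranks to these phases. *ARNTL* was called in control at p = 0.00022, where 0.831% of expressed loci had a p of at most 0.01. In 6AN its p of 0.0144 fell outside that threshold, where 0.797% of expressed loci were inside it. The study used another rank test, RAIN, at the same threshold and counts this gene, as *BMAL1*, among those rhythmic in both conditions. No locus in the table passed after Benjamini-Hochberg adjustment over all expressed loci in either condition by the umbrella test. An unadjusted umbrella p of at most 0.05 was reached by 738 loci in control (5.03% of expressed loci) and 626 in 6AN (4.26%). These shares are close to the threshold itself. limma's F test of a 24 hr cosine also left 0 loci after adjustment in either condition. At an unadjusted limma p of at most 0.05 there were 753 in control (5.13%) and 696 in 6AN (4.74%). The same test gave *ARNTL* unadjusted p-values of 0.000106 in control and 3.98e-05 in 6AN.

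A 24 hr cosine fitted beside a linear trend on the log2(FPKM + 1) scale described most of the variation of *ARNTL* around that trend, with R² of 0.878 in control and 0.870 in 6AN. Its fitted peak-to-trough ratio was 1.76-fold in control, with a range of 1.63 to 1.91 within 1 jackknife SE, and 2.71-fold in 6AN, with a range of 2.32 to 3.16. The amplitude was thus larger in 6AN by 0.31 ± 0.120 (log2, jackknife SE). The fitted peak lay at 11.6 ± 0.612 hr in control and at 22 ± 0.733 hr in 6AN. The shift of 10.4 ± 1.14 hr left the conditions 1.6 hr short of exact antiphase. This shift holds for a period of 24 hr in both conditions, and with unequal periods it would change from cycle to cycle. With the best period of each condition, given below, the first peak lay at 12.1 hr in control and at 22.2 hr in 6AN.

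The difference in the 24 hr rhythm itself was tested in 1 limma model over both conditions, which asked whether the cosine and sine terms depended on the treatment. They did for *ARNTL* (F = 52.7, p = 2.74e-08, adjusted limma p = 0.000201), which had the second lowest p of all expressed loci. In all, 11 loci passed at an adjusted p of 0.05, or 0.0749% of those tested, and of the 3 members only *ARNTL* did so. *NPAS2* had an unadjusted p of 0.000265 and missed the threshold at an adjusted limma p of 0.139. *CLOCK* had an adjusted limma p of 0.996. With 1 library for each time point, the error in this model is the scatter around the fitted curves.

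Allowing the cosine its own period between 16 and 32 hr, *ARNTL* was fitted best at 22.7 ± 1.17 hr in control and at 25.8 ± 0.981 hr in 6AN (jackknife SE). The 95% interval from the residual variance covered 20.7 to 24.8 hr for control and 23.7 to 27.8 hr for 6AN. These intervals overlap from 23.7 to 24.8 hr, and the difference of 3.1 ± 1.39 hr was given no test.

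**Figure D2:**
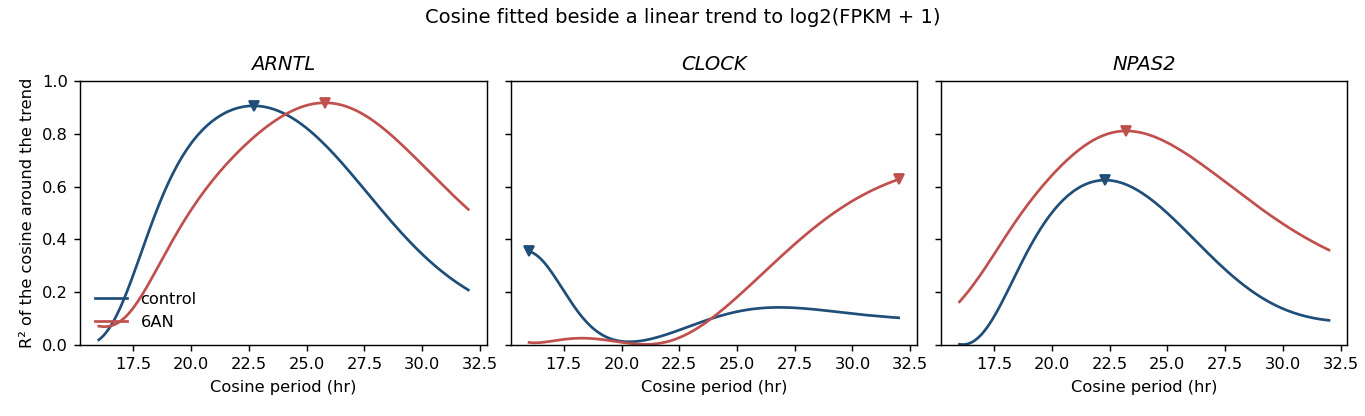
R² around the linear trend for a cosine fitted beside it to log2(FPKM + 1), against the period of the cosine in hours, for each gene in control (blue) and 6AN (red). Triangles mark the best period. The *ARNTL* curves top out at 22.7 and 25.8 hr with R² of 0.906 and 0.918, while the best periods of *CLOCK* lie on the edges of the range.

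*CLOCK*, whose protein is the usual partner of BMAL1, varied little over time in both conditions and was lower in 6AN. In control its lowest, median and highest values were 6.83, 7.97 and 8.97 FPKM, a span of 1.31-fold. In 6AN they were 4.98, 5.94 and 7.15 FPKM, a span of 1.44-fold. *CLOCK* was lower in 6AN at 12 of 12 time points, with a ratio to control that ran from 0.562 at 4 hr to 0.884 at 28 hr, although the highest 6AN value exceeded the lowest control value. The coefficient of variation over time was 7.24% in control and 11.3% in 6AN, against 26.1% and 43.4% for *ARNTL*.

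No 24 hr rhythm of *CLOCK* was called. The umbrella test gave 0.338 (control) and 0.628 (6AN) as its p, and the 24 hr cosine accounted for R² of 0.102 and 0.107 around the trend. At a period of 32 hr, the edge of the range searched, R² in 6AN was 0.627 with an amplitude of 0.15 (log2), against 0.07 at 24 hr. The fitted peak-to-trough ratio was 1.06-fold in control and 1.10-fold in 6AN, and the ranges of 1 SE, 0.993 to 1.12 and 0.984 to 1.22, both included no change. Because the best periods were 16 and 32 hr, the ends of the range searched, *CLOCK* yields no estimate of a period, and its fitted peak times are not interpreted.

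*NPAS2*, which can stand in for CLOCK as partner of BMAL1, was the member whose level differed most between conditions. In control it was lowest at 0 hr with 18.3 FPKM, had a median of 29.8 and was highest at 36 hr with 41.3. In 6AN it stayed between 14.2 and 19.8 FPKM, with a median of 16.9. The values lay closest at 0 hr, where the 6AN value was 0.953 times that of control, and farthest apart at 36 hr, at 0.368 times. Hours are those of the labels and 0 hr is not taken as the start of treatment, since *ARNTL* already differed there, at 5.62 FPKM in control and 10.9 in 6AN. *NPAS2* was lower in 6AN at 12 of 12 time points, and the ranges overlapped only because of the control library at 0 hr, as the next lowest control value, 22.4 at 4 hr, was above all of 6AN.

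A drift of *NPAS2* over time was examined after the values had been seen, and did not pass. In control its mean was 26.6 ± 6.49 FPKM over the first cycle and 32.1 ± 4.86 over the second, 1.21 times as high. The slope beside the 24 hr cosine was 0.24 ± 0.073 per 24 hr on the log2(FPKM + 1) scale in control (adjusted limma p = 0.052, p = 0.0038 unadjusted) and 0.11 ± 0.073 in 6AN (adjusted limma p = 0.314). A rise at an adjusted p of 0.05 was seen for 3.34% of expressed loci in control and 11.4% in 6AN, and *NPAS2* was in neither group. The control value of p rests on single libraries: without the one at 16 hr or the one at 44 hr it passed, and over all libraries left out it ran from 0.0239 to 0.254. The slopes of the conditions did not differ by test (adjusted limma p = 0.502).

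No rhythm of *NPAS2* was called in either condition, with an umbrella p of 0.0817 in control and 0.0573 in 6AN, and the test of a changed rhythm missed its threshold (adjusted limma p = 0.139). The values of the cosine are thus a description. The fitted peak-to-trough ratio was 1.41-fold in control (1.23 to 1.62 within 1 SE) and 1.26-fold in 6AN (1.21 to 1.32), so the amplitudes differed by -0.08 ± 0.105 (log2), less than the SE. The cosine accounted for R² of 0.570 around the trend in control and 0.801 in 6AN. The fitted peak was at 12.5 ± 1.44 hr in control and at 1.4 ± 0.670 hr in 6AN, which is 13 hr later, or 11 ± 1.36 hr earlier, on a 24 hr dial. The best periods, 22.3 ± 1.76 hr for control and 23.2 ± 1.95 hr for 6AN, differed by 0.9 ± 2.42 hr.

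The fitted peaks of *ARNTL* and *NPAS2* lay close together in control, with *NPAS2* later by 0.9 ± 1.04 hr. In 6AN *NPAS2* followed *ARNTL* by 3.4 ± 1.26 hr. The gap was wider in 6AN by 2.5 ± 1.32 hr. Over the 12 control libraries the log2 levels of both genes correlated with Pearson's r = 0.644 (permutation p = 0.0238, 0.285 after adjustment over 12 relations) and Spearman's rho = 0.748 (permutation p = 0.00727, adjusted 0.0872). Without the libraries at 12 and 36 hr, those with *ARNTL* farthest from its median, r was 0.477. After a linear trend was taken out of each gene, r was 0.858 in control (adjusted permutation p = 0.00312) and 0.472 in 6AN. In 6AN r was 0.447 (permutation p = 0.148, adjusted 0.590) and rho 0.399 (permutation p = 0.203, adjusted 0.624) before the trend was removed, and r was 0.361 without the libraries at 8 and 12 hr. The other pairs of activators had r of 0.170 to 0.458 and none passed the adjustment. Neither did any relation with *NR1D1*, the repressor of *ARNTL*, whose r with *ARNTL* at equal times was -0.356 in control (permutation p = 0.252, adjusted 0.730), with a rho of -0.252 (permutation p = 0.428, adjusted 0.624). In 6AN this r was -0.09 (permutation p = 0.775, adjusted 0.846) and rho -0.091 (permutation p = 0.781, adjusted 0.853). Without the libraries with *NR1D1* farthest from its median, r was -0.267 in control and -0.438 in 6AN. As successive time points of a rhythm are not independent, these p-values are too small to the extent that neighbours resemble each other.

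*NR1D1* itself peaked at 19.1 hr in control and at 4.8 hr in 6AN, so that the *ARNTL* peak preceded that of its repressor by 7.5 ± 0.903 hr in control and by 6.8 ± 1.27 hr in 6AN. The r at equal times depends on such a lag, so a small r cannot tell whether the genes are related at a lag. The lead of *ARNTL* over *NR1D1* differed between conditions by less than either SE. *NPAS2* preceded *NR1D1* by 6.6 ± 1.73 hr in control and by 3.4 ± 1.45 hr in 6AN.

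The 2 tables had been normalized separately, so the levels of a gene were compared between conditions without a test. On the log2(FPKM + 1) scale the ratio of 6AN to control was -0.36 for *CLOCK* (jackknife SE 0.0431), -0.78 for *NPAS2* (SE 0.107) and -0.03 for *ARNTL*. Over all expressed loci the median was -0.04, and 54.5% had a ratio below 0. Of expressed loci, 18.7% had a lower ratio than *CLOCK*, 5.60% a lower ratio than *NPAS2* and 51.0% a lower ratio than *ARNTL*. Of 3 members, *CLOCK* and *NPAS2* were lower at each of 12 time points, as were 19.8% of expressed loci. The osteoblast genes differed between conditions as well: their summed level ran from 433 to 584 FPKM in control libraries and from 143 to 310 FPKM in 6AN, and 6 of 7 had a lower mean in 6AN, among them *SPARC* (323 and 129 FPKM) and *COL1A1* (128 and 33.9 FPKM). Their part in the levels of *CLOCK* and *NPAS2* was not tested. In bulk RNA, fewer cells that make a transcript and less transcript in each cell cannot be told apart.

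Ratios between 2 genes of 1 library cancel the scaling of that library except for what the added 1 leaves, and were tested between conditions. The *NPAS2* to *CLOCK* ratio of (FPKM + 1) ran from 2.21 to 4.42 in control, with a geometric mean of 3.31, and from 2.19 to 3.11 in 6AN, with a geometric mean of 2.53. It was lower in 6AN at 10 of 12 time points, by a mean of -0.39 ± 0.380 (log2, SD over 12 time points, exact sign-flip permutation p = 0.00635, adjusted over 3 pairs 0.0139). The exceptions were the libraries at 0 and 4 hr, where the control level of *NPAS2* was at its lowest.

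The *NPAS2* to *ARNTL* ratio was likewise lower in 6AN, at 10 of 12 time points, with a mean difference of -0.66 ± 0.671 (exact sign-flip permutation p = 0.00928, adjusted 0.0139). Its range widened from 2.65 to 4.49 in control to 1.32 to 4.16 in 6AN. The *ARNTL* to *CLOCK* ratio swung about 1 in both conditions, between 0.727 and 1.43 in control and between 0.634 and 1.88 in 6AN. Its mean did not differ beyond the spread, at 0.27 ± 0.801 (exact sign-flip permutation p = 0.266, adjusted 0.266). The test treats the time points as independent pairs, so its p-values are too small to the extent that neighbours resemble each other. As each condition is a single series, they do not measure how the ratios would vary between repeats of the treatment. With 0.1 added in place of 1, the adjusted permutation p was 0.0234 for both ratios of *NPAS2* and 0.282 for the third.

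**Figure D3:**
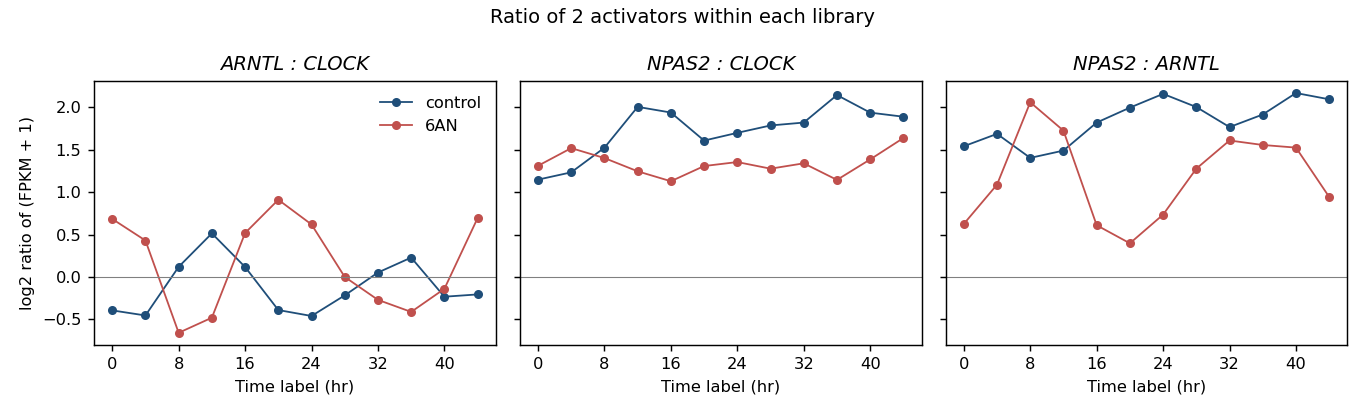
log2 ratio of (FPKM + 1) between 2 activators within each library, against the time label in hours, in control (blue) and 6AN (red). The *NPAS2* to *CLOCK* and *NPAS2* to *ARNTL* ratios are lower in 6AN at 10 of 12 time points each, and the *ARNTL* to *CLOCK* ratio crosses between conditions.

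Among 13 relatives of the activators in the bHLH-PAS family, proteins that pair through the same kind of domain, 9 were expressed. None of these 9 was called by the umbrella test at either treatment, a count near the 0.831% and 0.797% of all expressed loci, and 0 passed the test of a changed rhythm, against 0.0749% of all expressed loci. One of them, *AHRR*, had an unadjusted limma p under 0.05 in that test, as did 5.92% of expressed loci. *ARNTL2*, the closest relative of *ARNTL*, averaged 5.63 ± 0.450 FPKM in control and 4.30 ± 0.510 in 6AN and was lower at 11 of 12 time points. *HIF1A*, the oxygen-regulated member, was lower at 12 of 12, from 51.5 ± 3.36 to 41.2 ± 3.41 FPKM. It was the only such relative of the 9, where 19.8% of expressed loci were lower at every time. *EPAS1*, which encodes another hypoxia-inducible factor, was higher at 12 of 12, from 7.03 ± 0.456 to 14.3 ± 1.21 FPKM. It was 1 of 2 such relatives, where 12.6% of expressed loci were higher at every time. The median log2 ratio of the 9 was 0.14, with 6 above 0 and 3 below, where 54.5% of all expressed loci were below 0.

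The other clock genes, 20 named for their part in the loops, were mostly higher in 6AN. Of 17 that were expressed, 16 had a higher mean under treatment, where 54.5% of all expressed loci had a lower one. The median log2 ratio was 0.46 against -0.04 over all expressed loci. *PER1*, a repressor and target of the activators, was higher at 12 of 12 time points (15.3 ± 3.15 FPKM in control and 31.4 ± 8.45 in 6AN), 1 of 7 such genes, where 12.6% of expressed loci were higher at every time. *BHLHE41*, a repressor that competes for E-boxes, was the exception at 28.5 ± 3.74 FPKM in control and 6.42 ± 1.68 in 6AN. *NR1D1* averaged 16.3 ± 4.40 FPKM in control and 25.5 ± 9.58 in 6AN, and *RORA*, an activator of *ARNTL*, 2.49 ± 0.429 and 4.60 ± 0.356.

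**Figure D4:**
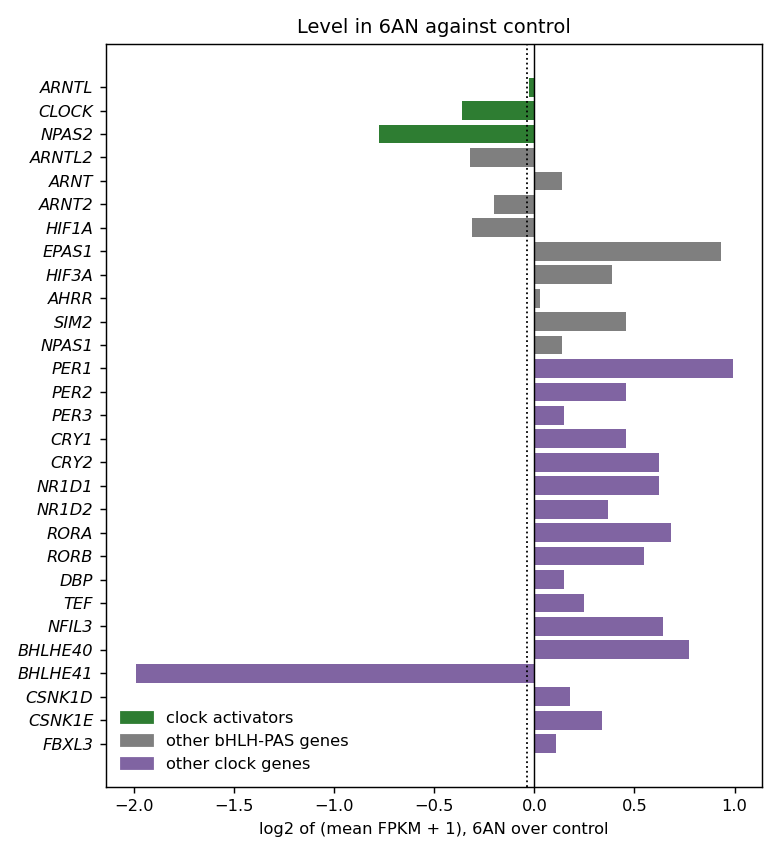
log2 ratio of (mean FPKM + 1) in 6AN over control for the clock activators (green), the expressed bHLH-PAS relatives (grey) and the expressed other clock genes (purple). Each bar is 1 gene over 12 time points, and the dotted line is the median of all expressed loci at -0.04. *CLOCK* at -0.36 and *NPAS2* at -0.78 lie below it while 16 of 17 other clock genes lie above 0. Of all expressed loci, 54.5% lie below 0.

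Of the 17, 6 passed the test of a changed 24 hr rhythm (*PER3*, *CRY1*, *NR1D1*, *NR1D2*, *DBP* and *TEF*), and 12 had an unadjusted limma p under 0.05, beside 0.0749% and 5.92% of expressed loci. The fitted peak of *PER3*, a repressor, was at 0.8 hr in control and 11.3 hr in 6AN, and that of *CRY1* was at 3.1 hr and 14.4 hr. *DBP*, an output factor, peaked at 23.7 hr and 8.5 hr. Under the umbrella test, 2 of 17 in control and 5 of 17 in 6AN had a p of at most 0.01, beside 0.831% and 0.797% of expressed loci.

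The loci whose time courses were most like those of the members were ranked by the mean of Pearson's r in control and in 6AN, each over 12 libraries on the log2(FPKM + 1) scale. For *ARNTL* these were *PDGFRB* (mean r 0.734), *VGLL3* (0.722), *TCP11L2* (0.676), *CSGALNACT1* (0.674) and *STAT3* (0.671), with the 99th percentile of all expressed loci at 0.468. For *CLOCK* they included *PCP2* (0.754), *ANKRD17* (0.740), *HOOK3* (0.711) and *NFAT5* (0.698), and for *NPAS2* *ATP10D* (0.796), *PPFIBP1* (0.760), *RHEBL1* (0.732), *SLC26A11* (0.728) and *LAMB1* (0.722). No other clock gene of the list was among them. These values are the top of a ranking and carry no test.

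Binding was read from the merged BMAL1 and CLOCK peaks, 4001 intervals of hg38 that the authors called with HOMER, each with a peak score. Within 10 kb of the members' loci there were 3 intervals, all from BMAL1 libraries and none from CLOCK libraries. Of 3 members, 2 had an interval, as did 31.4% of expressed loci. At *ARNTL* (chr11:13277727-13387265) a BMAL1 peak called in 6AN and not in control lay at chr11:13277601-13277801, centred 89 bp upstream of the RefSeq start site, with a score of 13.3. Only 9.94% of the 2314 merged intervals that include a BMAL1 peak in 6AN had a lower score, so its score is low among them. An interval's score comes from its parent peaks, which can be of several libraries, so this is not a rank within 1 library. The reporter of these cells carries a *Bmal1* promoter as well, and what reads from that copy add to the interval was not tested.

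At *CLOCK* (chr4:55427901-55546909, minus strand) a BMAL1 peak with a score of 18.4 was called in 6AN at chr4:55546698-55546898, 111 bp inside the gene. Another, with a score of 16.1, was called in control at chr4:55546420-55546620, 389 bp inside the gene. The first was close to the median score (18.4) of the merged intervals that include a BMAL1 peak in 6AN. The second was above 31.6% of the 1577 that include a BMAL1 peak in control. No interval lay within 50 kb of *NPAS2* (chr2:100820151-100996825), whose locus shares its span with LOC101927142, a transcript at 0.286 FPKM in control and 0.372 in 6AN.

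None of the 147 sites shared by BMAL1 and CLOCK in control, nor of the 439 in 6AN, was assigned to a member, where 0.844% and 2.34% of expressed loci had one. Histone signal was tabulated at the shared sites alone, so there is no value of H3K9ac or H3K4me3 for *ARNTL*, *CLOCK* or *NPAS2*. By comparison 12 of the 20 other clock genes had a shared site in control and 13 in 6AN. As 1 library was made for each factor and condition, a peak called in 1 condition alone has no replicate check.

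**Figure D5:**
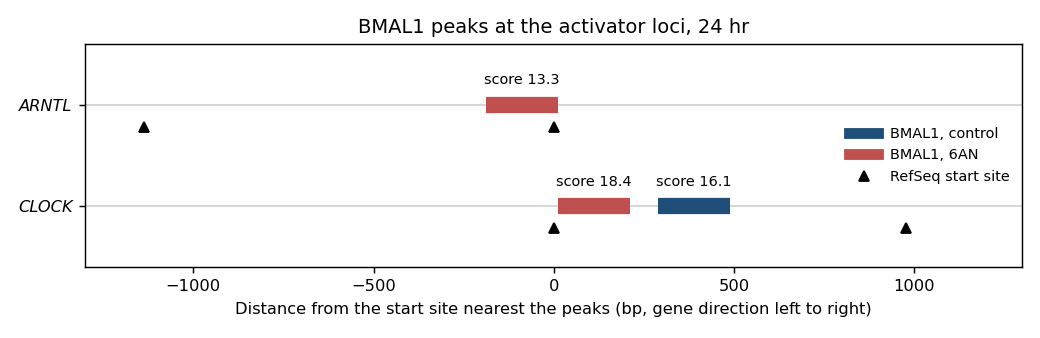
BMAL1 peaks at *ARNTL* and *CLOCK* against the distance in bp from the start site nearest to them, with the gene running left to right. Bars span each 200 bp peak, coloured by condition and marked with the peak score, and triangles mark RefSeq start sites. The *ARNTL* peak ends just past its start site and both *CLOCK* peaks lie downstream of one.

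Promoter windows from RefSeq (GRCh38.p14, 250 bases before to 50 after a start site) were matched for all 3 members, *ARNTL* under its present symbol *BMAL1*, with 5 windows in all. The upstream stretch of *ARNTL* that lies inside the BMAL1 peak, chr11:13277601-13277789 on the plus strand, is shown because it carries the only interval called at this gene. It is in lower case throughout, as none of the motifs searched for lies wholly in it.
ARNTL upstream stretch: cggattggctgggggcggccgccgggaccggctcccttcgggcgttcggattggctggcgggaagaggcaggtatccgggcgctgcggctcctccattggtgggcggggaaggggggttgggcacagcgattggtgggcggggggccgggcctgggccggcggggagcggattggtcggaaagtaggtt

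No window of any member held the E-box CACGTG on either strand, a motif found in 7.26% of 35116 RefSeq promoter windows. The D-box forms TTACGTAA and TTATGTAA, in 0.125% and 0.886% of windows, were also not found. AGGTCA, the core of the elements that ROR and REV-ERB proteins bind, was found in 13.8% of windows and in 1 window of the members, that of *ARNTL* around the start site under the peak. A second core, with T in the fifth place, was seen in the same window and led to a search for AGGTNA, chosen after the sequence was read, which 38.4% of windows hold. The 2 cores begin 5 bases before and 32 bases into the transcript, 36 bases apart, and are shown in capitals within 30 bases each, at chr11:13277773-13277802 and chr11:13277809-13277838 on the plus strand.
First core: tggtcggaaagtAGGTTAgtggtgcgacat
Second core: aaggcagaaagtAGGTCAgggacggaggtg

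Both cores are preceded by the same 6 letters. The matches describe letters in a window and not binding, and no ROR or REV-ERB library was part of the data used here. The windows of *CLOCK* and *NPAS2* held neither core. The share of G and C was 70.0% in the *ARNTL* window under the peak and 49.3% in its other window, 73.3% and 71.3% in those of *CLOCK*, and 75.7% in that of *NPAS2*, against a median of 58.7% over all windows.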

How the data were processed

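RNA-seq values were FPKM per locus, made and deposited by the authors in a table for each condition. Their processing notes name TopHat, Bowtie and Cufflinks with hg38, and the versions are not given in the sources used here. The study states that RNA was extracted in triplicate, but each time point has 1 library, and whether extracts were pooled is not stated. Merged peaks carry the HOMER peak score deposited by the authors. The deposited signal at shared sites (tags around each site, scaled to a common total) held no site at the members and was read for its gene assignment only. Depth is known only relative to the other libraries of a table, from the steps between the lowest FPKM values, so no counting error was computed.

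Expressed loci were those with the highest mean FPKM over 24 libraries (lowest 0.698), in the number given by the study. Values were taken as log2(FPKM + 1), a scale that understates changes of low genes. The umbrella test called p of at most 0.01. Tests of rhythm difference and slope used limma 3.58.1 in R 4.3.3 with a trended prior, and p-values were adjusted over all expressed loci at 0.05. Periods were searched from 16 to 32 hr in steps of 0.1 hr, errors are jackknife SE over 12 time points, and 95% intervals come from the residual F profile. Correlations used 100000 permutations and ratios all 4096 sign flips, both two-sided. The scripts were tested on simulated data. Named genes were the members, the 20 clock genes, the 13 relatives and, for each member, the 5 loci most alike, of which 1 is not reported here. The members and lists were chosen with earlier results of these data known. Alternatives covered the pseudocount, filters, trend, scaling, threshold, period range, windows and each time point left out.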

Additional observations from a re-analysis of the deposited data

Results flagged for a closer look

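The 24 hr rhythm of *ARNTL* differed between 6AN and control by the test of the difference itself, with an adjusted limma p of 0.000201 and a shift of the fitted peak of 10.4 ± 1.14 hr. Over the alternatives that left out 1 time point in both conditions, the adjusted limma p ran from 0.00017 to 0.00606.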

How the results depend on the processing

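Over 60 results, 755 of 786 values under an alternative kept their direction and their side of the threshold, or moved by less than their error. Most of the 786 left out 1 time point and share the other data. Of the 174 that did not leave one out, 163 stayed the same in this sense. The umbrella p of *ARNTL* in 6AN (0.0144) passed the threshold with the linear trend removed (0.00667), under limma's cosine test (3.98e-05) and at a threshold of 0.05 (0.0144), and leaving out the library at 8, 16, 20 or 44 hr also brought it under 0.01, within a range of 0.00329 to 0.0225. The near-zero level difference of *ARNTL* turned to 0.009 relative to the median of expressed loci and ran from -0.144 to 0.088 over the time points left out, above 0 without 8, 12, 32 or 36 hr. The unset period of *CLOCK* moved to 26.8 hr in control and 28 hr in 6AN in the narrower search, and from 16 to 16.7 hr and 29.7 to 32 hr without single time points. Its amplitude in 6AN at its own period was 0.154, and its level difference from means of log2(FPKM + 0.1) was -0.412. The *NPAS2* peak in 6AN was at 2.1 hr with its own period. With the trend removed, r between *ARNTL* and *NPAS2* in control rose to 0.858 and r between *NR1D1* and *NPAS2* in control turned to -0.198. In 6AN, correlations of *NR1D1*, none past the threshold, changed sign without single time points, from -0.291 to 0.03 with *ARNTL*, -0.205 to 0.332 with *CLOCK* and -0.008 to 0.321 with *NPAS2*. The causes were not tested.

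With the time point as a block, chosen after seeing the data, the rhythm difference had adjusted limma p-values of 0.00588 for *ARNTL*, 0.879 for *CLOCK* and 0.324 for *NPAS2*, with 11 loci passing as without it. Libraries of equal time deviated from their condition's mean with correlations of -0.02 to 0.18, over 0.1 in 1 of 12 pairs. Whether libraries of equal time were also handled together is not stated, and these correlations cannot tell. As no shared site lay at a member, the alternatives with a pseudocount of 5 and with input subtracted gave no value.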
